A study of Mus musculus with 11 samples.

Results

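The D cyclins and their kinases are 5 mouse genes: Ccnd1, Ccnd2 and Ccnd3, which encode cyclins D1, D2 and D3, and Cdk4 and Cdk6, which encode the kinases that these cyclins activate. They were taken by name from the protein-coding genes of RefSeq's GRCm38.p6 annotation, the same build as mm10, in which the files give their coordinates. These 5 stand among 21883 coding genes. Every deposited region that overlapped a gene's span or the 50 kb on either side of it was kept. That gave 41 transcription-factor peaks from 5 lists and 124 histone-mark segments from 4 lists. The rule uses names and positions and no measured value, although the genes were picked with earlier results of these data known.

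D-type cyclins are made when growth signals arrive in the G1 phase. They bind Cdk4 or Cdk6, and the complex phosphorylates the retinoblastoma protein and its relatives, which releases E2F transcription factors and lets the cell enter S phase. In developing thymocytes, cyclin D3 is needed for the expansion that follows the pre-T-cell receptor checkpoint, and cyclin D3 and Cdk6 are known for their part in T-cell leukaemia driven by Notch1.

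Chromatin immunoprecipitation and sequencing (ChIP-seq) had been performed on 8946 cells, a line from a mouse T lymphoblastic leukaemia (T-ALL). All groups carry 2 retroviral constructs: an epitope-tagged Zmiz1 followed by an NGFR marker, and an activated Notch1 followed by a GFP marker. Doubly positive cells, GFP+/NGFR+, were sorted. Of the targets, ICN1 is the active intracellular part of Notch1, Rbpj holds it on DNA, and Zmiz1 is a coactivator related to the PIAS proteins.

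The derivative called the Flag line here is Flag-Zmiz1/L1601PDP, named for its tag and its Notch1 construct, and it gave an input library, factor libraries for Rbpj, ICN1 and Flag-Zmiz1, and histone libraries for H3K4me3, H3K4me1, H3K27ac and H3K27me3. The HA line is HA-Zmiz1/DEGFDLNRDP and gave HA-Zmiz1, ICN1 and input. Both lines carry Zmiz1 and an activated Notch1 on retroviruses, and no cells without them were profiled among the samples analysed here. Factor libraries were fixed with DSG and formaldehyde, histone libraries with formaldehyde alone. Each target has 1 library per line, so nothing below has a replicate or a test, and every interval covers counting error only. The tag, the Notch1 construct and the library change together between the lines, so their parts in a difference cannot be told apart. All histone libraries and Rbpj come from the Flag line, so peaks of the HA line are set here against chromatin of the other derivative.

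The factor libraries held 13.5 to 19.0 M filtered tags and the inputs 36.4 and 26.8 M. The peak caller listed 581 Flag-Zmiz1, 4984 HA-Zmiz1, 82 Flag-line ICN1, 414 HA-line ICN1 and 20993 Rbpj peaks. H3K4me3 segments, which mark active gene starts, lay over an end of 12 of 12 T-cell marker genes, 1 of 8 B-cell and 1 of 8 myeloid marker genes, against 46.6% of coding genes. The H3K27 labels went against the genes of known state. Segments labelled H3K27ac, a mark of active chromatin by name, covered an end of 18 of 20 developmental regulators and 0 of 20 housekeeping genes. Segments labelled H3K27me3, the Polycomb mark by name, covered 0 of 20 and 19 of 20. The 2 libraries are therefore called by their labels throughout, and no chromatin state is read from either name.

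The 5 genes fell into unlike groups. Ccnd3 and Cdk6 had HA-Zmiz1, ICN1 and Rbpj peaks inside the gene span. The ICN1 peak of Cdk6 lay before its listed start and also within a non-coding RNA gene. Cdk4 had Rbpj peaks without the other factors, Ccnd2 had Rbpj peaks only at its neighbour Tigar, and Ccnd1 had no factor peak. HA-Zmiz1 peaks lay within 50 kb of 2 of the 5 genes, against 27.8% of coding genes. HA-line ICN1 peaks also lay at 2 of 5, against 3.42% of coding genes, and HA-Zmiz1 with HA-line ICN1 occurred at those same 2 against 2.93%. With Rbpj added the share of coding genes was 2.92%. Rbpj peaks lay at 4 of 5, against 67.2%, and no peak of any list lay at 1 of 5, against 31.7%. In the Flag line 0 of 5 had a Flag-Zmiz1 peak (4.06% of coding genes) and 0 of 5 an ICN1 peak (0.215%). Ccnd3 and Cdk6 also have the longest windows, 194.6 and 290.0 kb, against 103.8 to 127.0 kb for the others. These shares are not adjusted for length. With 5 genes, these counts describe the genes and are not a result about D cyclins as a class. A gene without a peak is a gene where none passed the authors' p limit of 1e-05, not a gene shown to lack the factor.

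**Figure D1:**
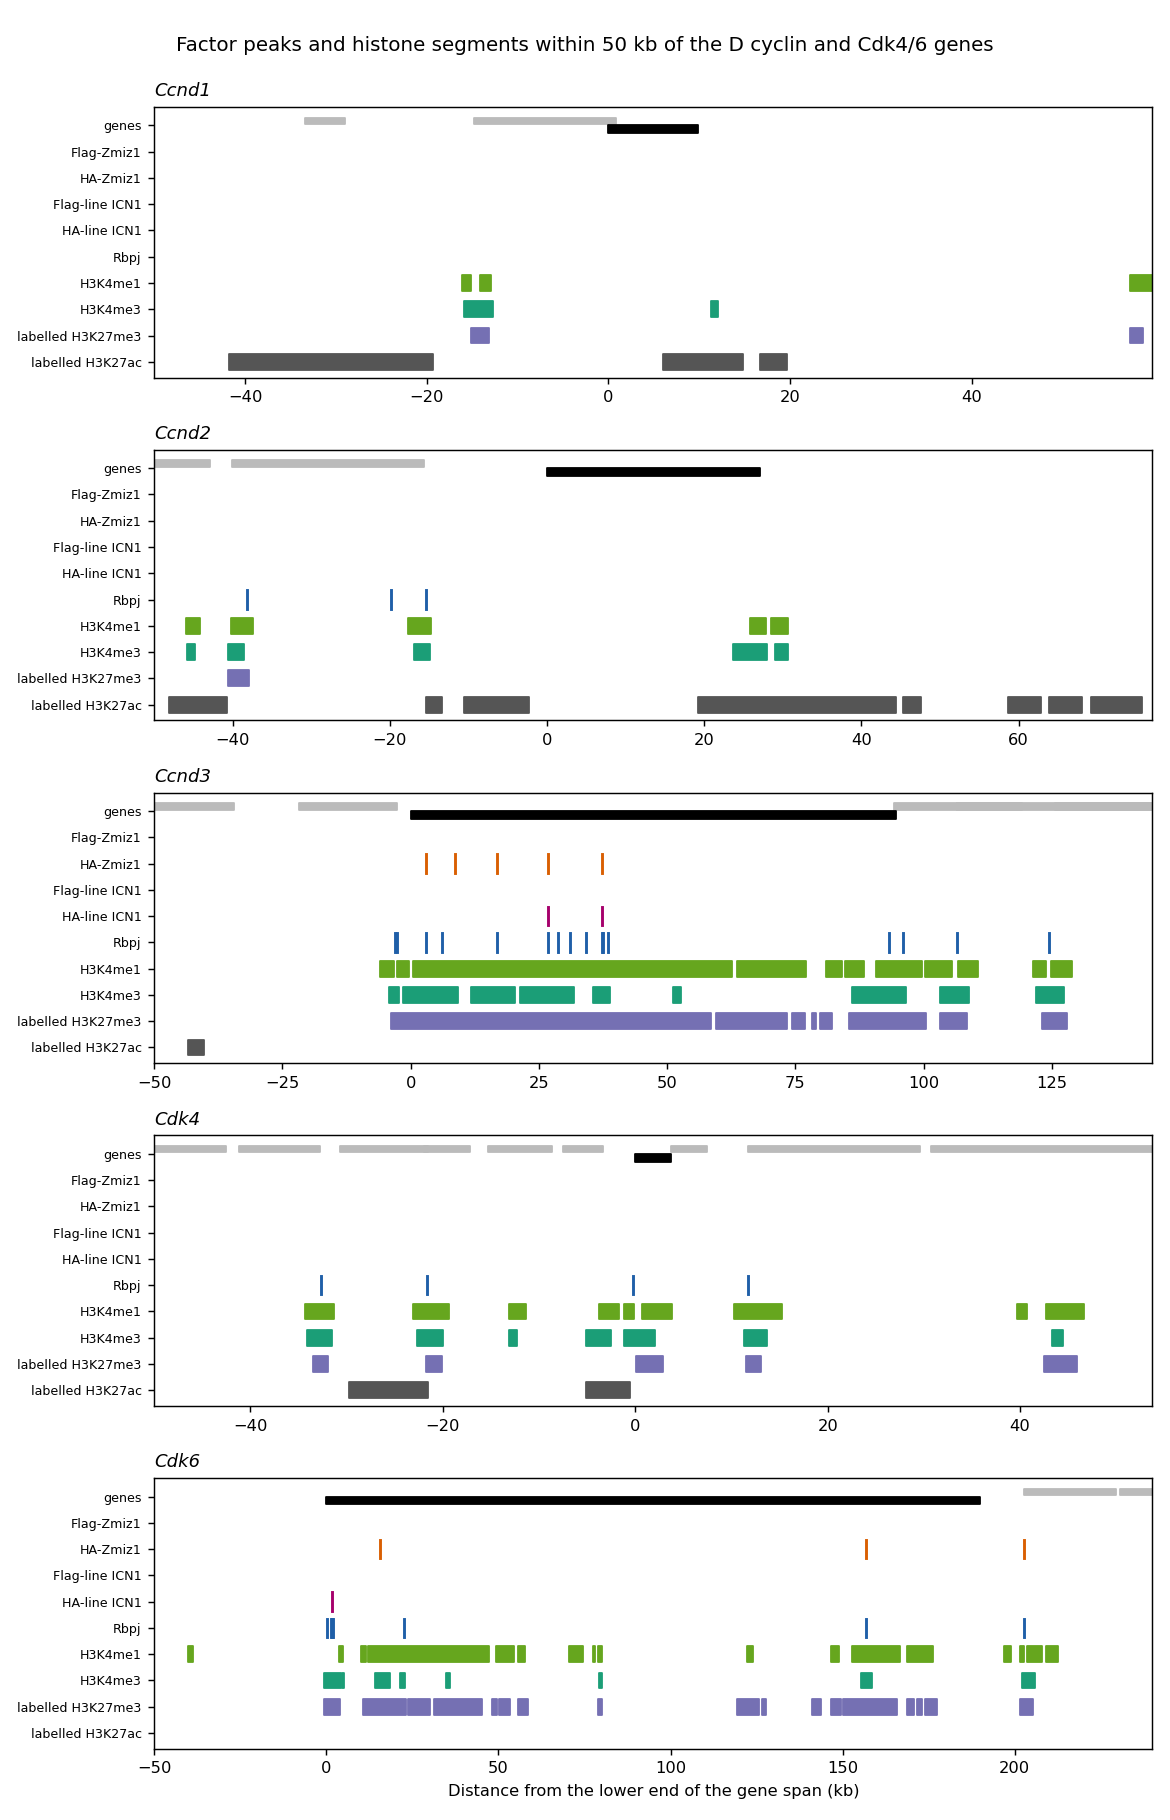
Maps of the 5 genes with 50 kb on either side, in kb from the lower-coordinate end of each gene (x axis). Rows hold gene spans (black, the named gene; grey, neighbouring coding genes), peaks of the 5 factor libraries and segments of the 4 histone libraries. HA-Zmiz1 and HA-line ICN1 peaks appear in the maps of Ccnd3 and Cdk6, and the map of Ccnd1 has no factor peak.

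The 41 peaks merged into 31 separate sites, of which 22 held Rbpj alone. HA-Zmiz1 with Rbpj made up 4 sites, all 3 factors 2 sites, ICN1 with Rbpj 1 site and HA-Zmiz1 alone 2 sites. By gene, 16 sites were at Ccnd3, 8 at Cdk6, 4 at Cdk4 and 3 at Ccnd2. Of the 3 ICN1 peaks, 2 overlapped an HA-Zmiz1 peak (72.9% in the whole list) and 3 an Rbpj peak (96.6%). Of the 8 HA-Zmiz1 peaks, 6 overlapped an Rbpj peak (71.3%), and 7 of the 30 Rbpj peaks overlapped an HA-Zmiz1 peak (16.9%). These shares are near those of the whole lists. Local input background under the 41 peaks ran from 1.01 to 6.52 times the library mean, and none reached the 10-fold level used to mark input-rich sites.

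Ccnd3, which encodes the D cyclin most tied to thymocyte expansion, had the most sites of the 5 genes. It spans chr17:47505051-47599689, a length of 94.6 kb, with listed starts at 47505051 and 47593467. Per 100 kb of gene and flanks it held 2.57 HA-Zmiz1 peaks, a density that 2.95% of coding genes reach. Its 1.03 HA-line ICN1 peaks per 100 kb are reached by 0.197% of coding genes, and its 8.22 Rbpj peaks per 100 kb by 4.10%.

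The strongest Ccnd3 site carried all 3 factors, 37.2 kb past the first start. The HA-Zmiz1 peak, chr17:47542106-47542501, had a pileup of 47 tags at its summit. That was 14.6-fold over local input (95% interval 10.8 to 19.3), rank 19 of 4984 by −log10 p. The ICN1 peak of the HA line, chr17:47542220-47542381, had a pileup of 30 tags and a fold of 17.2 (11.8 to 24.3), rank 14 of 414. The Rbpj peak of the Flag line, chr17:47542124-47542383, had a pileup of 59 tags and a fold of 19.4 (14.8 to 24.9), rank 98 of 20993. The summits of HA-Zmiz1 and Rbpj were 2 bp apart, those of HA-Zmiz1 and ICN1 36 bp, and those of ICN1 and Rbpj 38 bp. The 3 summits come from 2 lines and 3 antibodies. The site also lies inside Gm41590, an annotated long non-coding RNA (chr17:47539141-47546357). The annotation used here gives gene spans and starts but no exons, so exonic and intronic positions are not separated.

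The other Ccnd3 site with all 3 factors lay 26.7 kb past the first start. HA-Zmiz1 there reached a fold of 7.25 (4.87 to 10.4), with its summit at 47531749. ICN1 reached 8.48 (5.06 to 13.5), rank 106 of 414, at 47531824, and Rbpj 9.64 (7.18 to 12.7), rank 507 of 20993, at 47531849. All 3 folds at this site were below those at the strongest site. The intervals of the 2 sites, which hold local background fixed, did not overlap for HA-Zmiz1 and Rbpj, whereas those for ICN1 did. Pileups at this site were 27 tags for HA-Zmiz1 and 49 for Rbpj, against 47 and 59 at the strongest site. Local input background was 5.54 and 6.52 times the library mean here, against 4.43 and 3.26 there. The part of this background in the lower folds was not tested.

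HA-Zmiz1 peaks nearer the first start were weaker than the peak at 37.2 kb. The fold was 6.18 (3.16 to 11.2) at 3.09 kb, 6.05 (3.09 to 10.9) at 8.66 kb and 9.33 (5.80 to 14.3) at 16.8 kb. The peaks at 3.09 and 16.8 kb overlapped Rbpj peaks with folds of 10.0 and 8.57, and the peak at 8.66 kb overlapped none. The 16 Rbpj peaks of the window had folds from 3.38 to 19.4, and 11 of them lay in the gene. The other 5 lay near Taf8, Bysl, Gm20517, Med20 and Usp49, coding genes beside Ccnd3 or, for Bysl, overlapping its upper end. A peak there may belong to a neighbour.

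**Figure D2:**
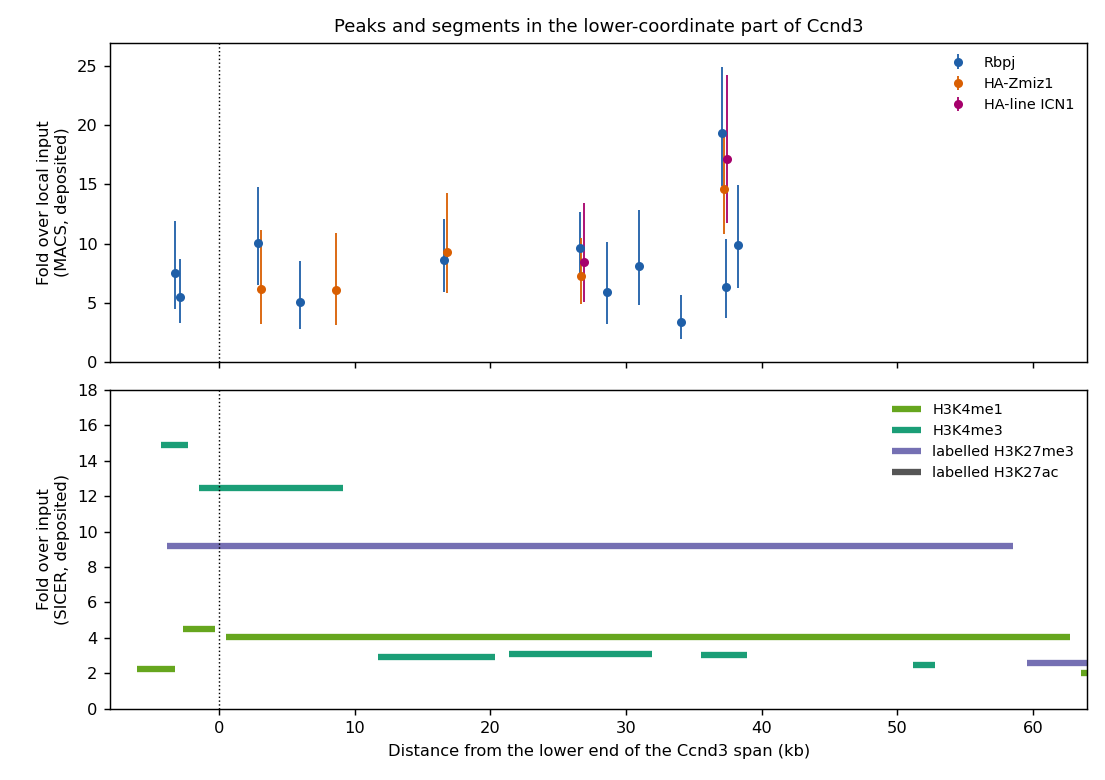
Upper panel, fold over local input of each factor peak (y axis, deposited MACS values, bars the 95% counting interval) against distance from the lower end of Ccnd3 in kb, with Rbpj points drawn slightly to the left and ICN1 points slightly to the right so that they can be told apart. Lower panel, histone segments at the height of their deposited fold over input. The points at 37.2 kb stand at 14.6 for HA-Zmiz1, 17.2 for ICN1 and 19.4 for Rbpj, inside the 62.4 kb segment of the library labelled H3K27me3.

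The lower-coordinate part of Ccnd3 lay under very wide segments. In the library labelled H3K27me3, a segment of 62.4 kb (chr17:47501201-47563600) held 9838 reads against 1663 control reads, a fold of 9.21 (8.74 to 9.70). It was 10th of 33646 by width and 209th by fold. H3K4me1, a mark of enhancers and of the flanks of active starts, had a segment of 62.2 kb with a fold of 4.03 (3.81 to 4.27), 25th of 46130 by width. Both segments contained all 5 HA-Zmiz1 and both ICN1 peaks of the gene.

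H3K4me3 lay over both ends of Ccnd3. The segment at the first start was 10.6 kb wide with a fold of 12.4 (11 to 14.1), and the segment over the other end and the second start was 10.4 kb wide with a fold of 14.9 (13.3 to 16.8). The latter also covers an end of Bysl. A 10.6 kb segment from chr17:47526401 and one of 3.40 kb from chr17:47540601 lay under the 2 sites with all 3 factors, with folds of 3.10 and 3.06. The library labelled H3K27ac had 1 segment in the window, with a fold of 2.02, 40.3 kb from the gene. Segments covered 57.7% of the window for H3K4me1, 30.0% for H3K4me3, 55.0% for the library labelled H3K27me3 and 1.64% for the library labelled H3K27ac. The means over coding genes were 13.1%, 6.17%, 9.20% and 9.15%, and 1.32%, 0.896% and 0.836% of coding genes reached the Ccnd3 value for H3K4me1, H3K4me3 and the library labelled H3K27me3.

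The 250 bases before the first Ccnd3 start lie under the 10.6 kb H3K4me3 segment and under no factor peak. They are shown, with those before the starts of Cdk6 and Cdk4 below, because the H3K4me3 segments at these 3 genes are among the results described. In each sequence, written 5′ to 3′ from RefSeq GRCm38.p6, capitals mark the letters searched for on both strands: TGGGAA, the core to which Rbpj is known to bind (its reverse complement is TTCCCA), and CACGTG, the E-box palindrome. Of 32851 listed starts, 21.6% have TGGGAA and 6.02% have CACGTG in these 250 bases. The Ccnd3 sequence holds neither, nor does that before its second start.
Ccnd3, chr17:47504801-47505050, plus strand: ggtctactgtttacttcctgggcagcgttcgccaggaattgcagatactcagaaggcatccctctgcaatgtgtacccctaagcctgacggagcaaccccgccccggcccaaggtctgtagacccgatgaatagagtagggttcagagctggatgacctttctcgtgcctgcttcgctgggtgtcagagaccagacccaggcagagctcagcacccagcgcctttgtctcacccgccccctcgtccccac

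Ccnd2, which encodes cyclin D2, spans chr6:127125162-127152188 (27 kb) and had no factor peak in the gene. Its 3 Rbpj peaks lay at or in Tigar, the coding gene on its lower-coordinate side. Their folds were 7.33 (4.23 to 12), 5.84 (3.37 to 9.53) and 12.2 (8.0 to 17.9). The strongest was 226 bp before the Tigar start and 15.4 kb from Ccnd2. The nearest HA-Zmiz1 peak was 322 kb away and the nearest HA-line ICN1 peak 1691 kb away.

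The upper-coordinate end of Ccnd2 carried 3 marks at once. Under the label H3K27ac, a 25.2 kb segment (chr6:127144401-127169600) held 1367 reads against 408 control reads. Its fold of 6.09 (5.45 to 6.82) ranked 138th of 25172, and its width 316th. H3K4me3 over the same end was 4.4 kb wide with a fold of 5.16 (3.90 to 6.90), and H3K4me1 was 2.00 kb wide with a fold of 3.05 (1.97 to 4.84). H3K4me3 and the library labelled H3K27ac each lay over an end, the same one or not, in 5.92% of coding genes. The share with both over the same end was not computed. The library labelled H3K27me3 had no segment over Ccnd2, and its only one in the window, of 2.60 kb, covered an end of Tigar. The library labelled H3K27ac had 8 segments here and covered 47.2% of the window, a share that 2.66% of coding genes reach.

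Ccnd1, which encodes cyclin D1, spans chr7:144929931-144939831 (9.90 kb). Its lower-coordinate end lies inside LTO1 (chr7:144915100-144930748), and Fgf15 is 29.0 kb away. The nearest Rbpj peak was 346 kb away, the nearest HA-Zmiz1 peak 391 kb and the nearest HA-line ICN1 peak 1145 kb. Its upper-coordinate end lay under a segment labelled H3K27ac of 8.80 kb (chr7:144936001-144944800), with 508 reads against 144 control reads. The fold was 6.42 (5.32 to 7.77), rank 94 of 25172. No segment of H3K4me3, H3K4me1 or the library labelled H3K27me3 covered an end of Ccnd1. The nearest H3K4me3 segment was 0.8 kb wide, had a fold of 2.97 (1.54 to 5.95) and lay 1.37 kb from the gene. An H3K4me3 segment with a fold of 15.7 in the same window covered an end of LTO1. A second segment labelled H3K27ac, 22.4 kb wide with a fold of 3.25, covered an end of Fgf15, which encodes a fibroblast growth factor. The H3K27ac-labelled library covered 31.1% of the Ccnd1 window, a share that 8.19% of coding genes reach.

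**Figure D3:**
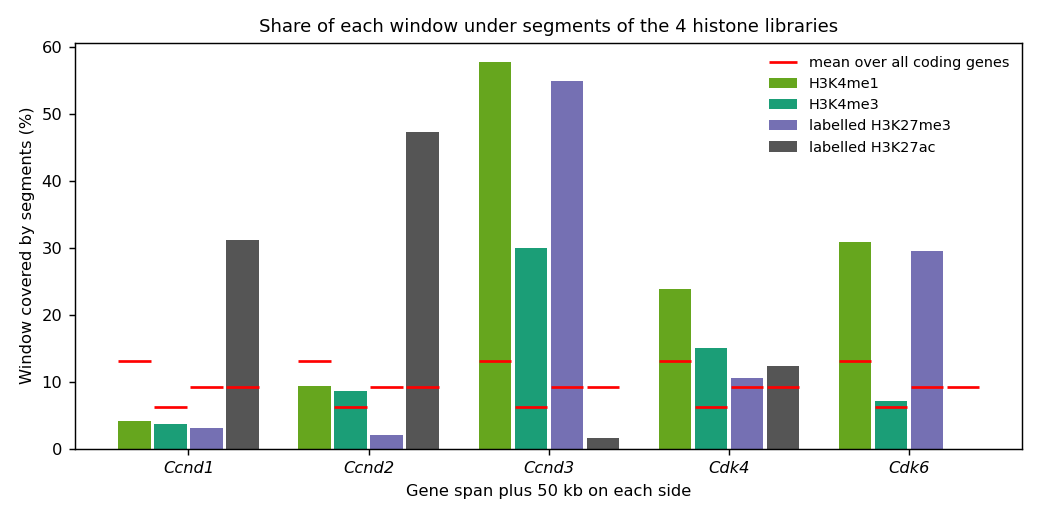
Share of each window (gene plus 50 kb on either side) under segments of the 4 histone libraries, in percent, with the mean over all coding genes as a red line. The library labelled H3K27ac covers 47.2% of the Ccnd2 and 31.1% of the Ccnd1 window but 1.64% of the Ccnd3 window and none of the Cdk6 window. The library labelled H3K27me3 covers 55.0% at Ccnd3 and 29.6% at Cdk6.

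The segments over gene ends thus separated Ccnd1 and Ccnd2 from Ccnd3. For the library labelled H3K27ac, 2 of the 5 genes, Ccnd1 and Ccnd2, had an end covered, against 18.9% of coding genes. For that labelled H3K27me3 the count was also 2 of 5, Ccnd3 and Cdk6, against 43.1%. H3K4me3 covered an end of 4 of 5, all but Ccnd1, against 46.6%, and H3K4me1 of 3 of 5 (Ccnd2, Ccnd3 and Cdk4) against 23.8%.

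**Figure D4:**
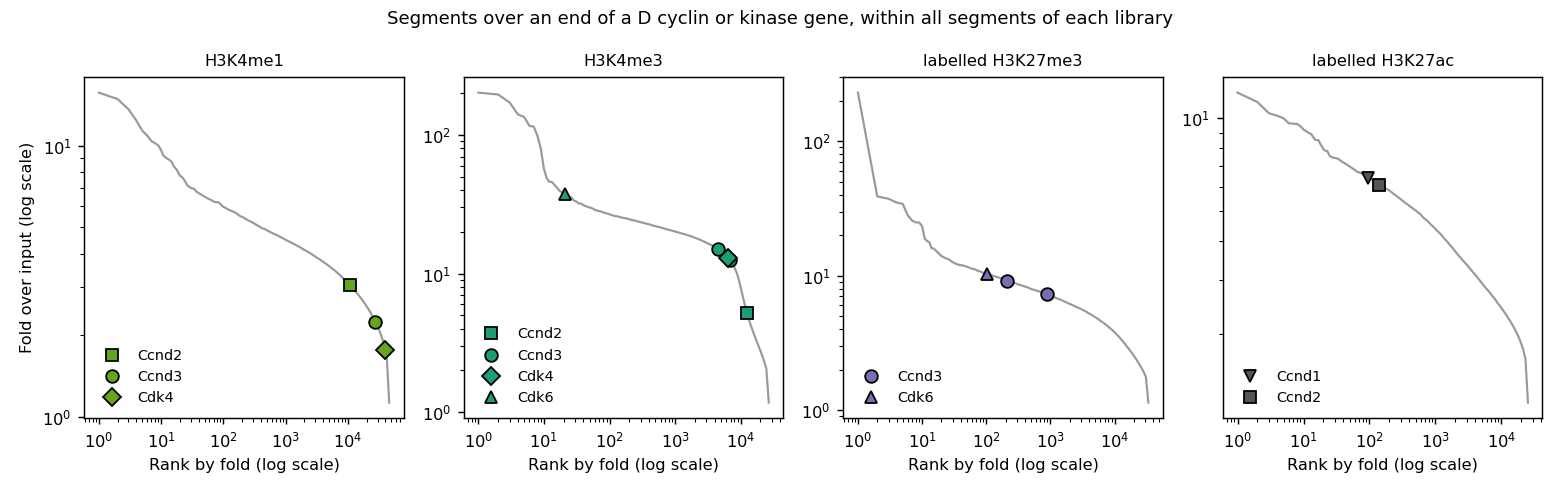
Each panel ranks all segments of a histone library by deposited fold over input (x axis, rank; y axis, fold; both log scales), with the segments over an end of the 5 genes as symbols. The Cdk6 segment of H3K4me3 stands at rank 21 with a fold of 37.8, and the Ccnd1 and Ccnd2 segments of the library labelled H3K27ac stand at ranks 94 and 138.

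Cdk6, the kinase partner prominent in haematopoietic cells, spans chr5:3341004-3531008 (190.0 kb), with a listed start at 3343893. Its strongest factor peak was at the lower-coordinate end. The Rbpj peak chr5:3342424-3342629 had a pileup of 34 tags and a fold of 21.3 (14.9 to 29.5), rank 241 of 20993. The HA-line ICN1 peak chr5:3342522-3342580, with its summit 4 bp away, had a pileup of 10 tags and a fold of 7.32 (3.86 to 12.9), rank 196 of 414. No HA-Zmiz1 peak overlapped this site, which differs in that from both ICN1 sites of Ccnd3. The Rbpj interval here overlapped that of the strongest Ccnd3 site. The ICN1 interval overlapped it only between 11.8 and 12.9. The site lies before the listed Cdk6 start and inside Gm36470, a long non-coding RNA on the minus strand (chr5:3289980-3343559), 295 bp before a start of that RNA by the Rbpj summit. A peak there cannot be assigned to Cdk6 or Gm36470 by position.

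HA-Zmiz1 peaks of the Cdk6 window lay elsewhere. A peak 12.6 kb past the listed start had a fold of 7.46 (4.38 to 12) and overlapped no Rbpj peak. The strongest, chr5:3497555-3497873, lay 157 kb from the lower end of the gene with a fold of 12.2 (7.66 to 18.5), rank 288 of 4984. An Rbpj peak with a fold of 4.62 (2.36 to 8.36) overlapped it, with summits 164 bp apart. The third, with a fold of 7.62 (4.12 to 13.1), lay outside Cdk6, 48 bp before the start of Fam133b, where the Rbpj fold was 14.7 (9.98 to 20.8). The summits of those peaks were 6 bp apart. Per 100 kb the window held 1.03 HA-Zmiz1 peaks, a density reached by 10.1% of coding genes, and 2.41 Rbpj peaks, reached by 35.0%. Its 0.345 HA-line ICN1 peaks per 100 kb are reached by 3.20%.

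The H3K4me3 segment at the lower end of Cdk6 had one of the highest folds of its library. It was 5.0 kb wide (chr5:3340201-3345200) and held 1625 reads against 66 control reads. Its fold of 37.8 (29.5 to 49.1) ranked 21st of 26767, where the H3K4me3 folds over ends of Ccnd2, Ccnd3 and Cdk4 were 5.16 to 14.9. H3K4me3 held 991 reads against 117 in 3.20 kb at Cdk4 and 3241 against 333 in 10.4 kb at the upper end of Ccnd3. At the upper end of Ccnd2 it held 222 against 66 in 4.40 kb. A fold depends on the control count as well as on the ChIP reads, so this rank is not one of ChIP read density. The library labelled H3K27me3 had a 4.80 kb segment there with a fold of 10.23 (7.88 to 13.5), rank 103 of 33646. It held 434 reads against 66 control reads, and the 2.80 kb Cdk4 segment of that library held 350 against 95. The same library covered the HA-Zmiz1 site at 157 kb with a 15.8 kb segment of fold 6.64 (5.93 to 7.46), and H3K4me1 did so with a 14.2 kb segment of fold 4.09 (3.63 to 4.62). A further H3K4me1 segment of 0.8 kb inside the gene, chr5:3418401-3419200, ranked 18th of 46130 by fold, at 8.14 (3.65 to 21.4), on 46 reads against 7 control reads. The interval reflects that small control count. The library labelled H3K27ac had no segment in the Cdk6 window, and its 3 counterparts covered 30.8% (H3K4me1), 7.10% (H3K4me3) and 29.6% (labelled H3K27me3).

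The 250 bases before the listed Cdk6 start lie in that H3K4me3 segment and hold 1 CACGTG, starting at position −220 counted back from the start, and no TGGGAA. No factor peak overlapped them. The 250 bases before the Fam133b start are printed because they hold the summits of an HA-Zmiz1 peak at −48 and of an Rbpj peak at −54. They contain 1 TGGGAA, starting at −109, and no CACGTG.
Cdk6, chr5:3343643-3343892, plus strand: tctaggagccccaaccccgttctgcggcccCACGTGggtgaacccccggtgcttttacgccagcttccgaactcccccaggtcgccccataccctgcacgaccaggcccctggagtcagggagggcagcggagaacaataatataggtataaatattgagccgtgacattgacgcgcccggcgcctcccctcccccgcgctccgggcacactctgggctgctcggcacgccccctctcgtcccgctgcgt
Fam133b, chr5:3543583-3543832, plus strand: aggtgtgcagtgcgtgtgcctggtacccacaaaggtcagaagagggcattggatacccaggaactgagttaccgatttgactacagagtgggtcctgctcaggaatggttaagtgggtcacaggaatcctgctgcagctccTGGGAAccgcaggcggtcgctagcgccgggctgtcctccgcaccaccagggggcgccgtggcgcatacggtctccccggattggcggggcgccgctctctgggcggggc

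Cdk4, the more widely expressed kinase partner, spans chr10:127063535-127067288, only 3.75 kb, in a window with 9 neighbouring coding genes. An Rbpj peak lay over its start, chr10:127063273-127063580, with its summit 190 bp before the start, a pileup of 25 tags and a fold of 10.1 (6.68 to 14.8), rank 1900 of 20993. It was the only Rbpj peak among the 30 whose summit lay in the 250 bases before a listed start of Ccnd3, Cdk4 or Cdk6. Rbpj peaks overlap that stretch at 21.3% of listed starts. The other 3 Rbpj peaks of the window were at the starts of Tsfm (9.34) and Mettl1 (8.31) and 38 bp from an end of Agap2 (4.85), where the values are folds. No HA-Zmiz1 peak lay within 50 kb, the nearest being 69.3 kb away with a fold of 6.32, and the nearest HA-line ICN1 peak was 1431 kb away.

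The start of Cdk4 lay under a 3.20 kb H3K4me3 segment with a fold of 13.0 (10.7 to 15.9). A segment labelled H3K27me3, of 2.80 kb, began 66 bp inside the gene and had a fold of 5.73 (4.56 to 7.27). A segment labelled H3K27ac, of 4.60 kb, ended 535 bp before the start and had a fold of 4.75 (3.73 to 6.08). The latter covers an end of Marchf9. The 2 H3K27 libraries therefore lay within 1 kb of each other at Cdk4, with neither over an end of the gene.

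The 250 bases before the Cdk4 start are printed because the Rbpj summit falls in them, at −190. They contain CACGTG 4 times, starting at −172, −118, −98 and −11, and TGGGAA once in reverse, as TTCCCA, at −141. Among the 32851 listed starts, 7 (0.0213%) have 4 or more CACGTG in this stretch. Over all starts, CACGTG was present in 9.86% of stretches that an Rbpj peak overlaps and in 4.98% of the others, and TGGGAA in 20.1% and 22.0%. A match describes the letters and is not evidence of a bound site.
Cdk4, chr10:127063285-127063534, plus strand: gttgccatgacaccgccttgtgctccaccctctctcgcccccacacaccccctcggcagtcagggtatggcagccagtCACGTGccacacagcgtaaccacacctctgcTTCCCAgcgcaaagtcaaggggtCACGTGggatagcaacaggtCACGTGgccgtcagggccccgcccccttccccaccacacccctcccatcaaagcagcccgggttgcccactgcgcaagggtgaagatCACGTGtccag

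**Figure D5:**
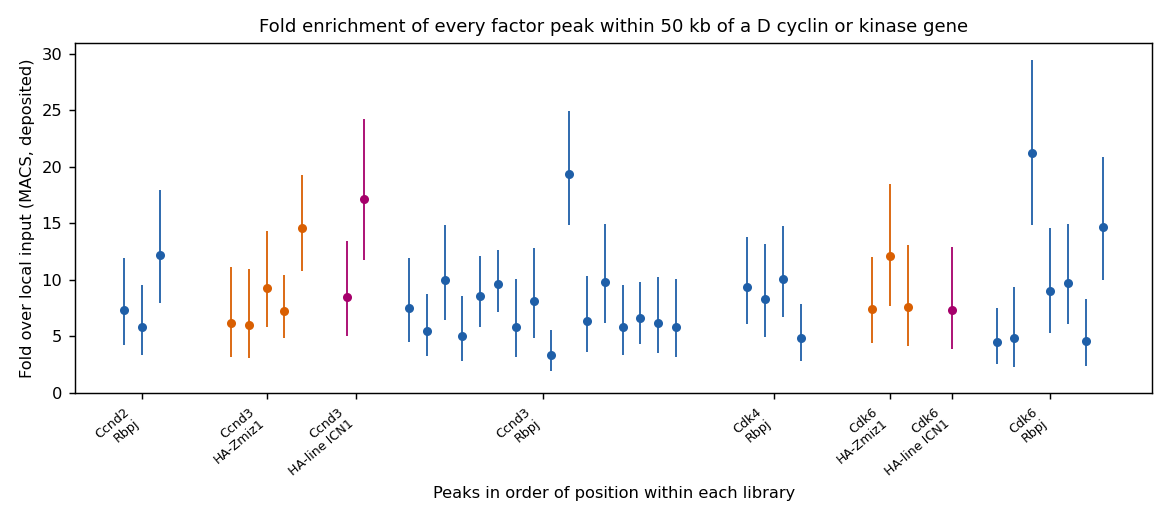
Fold over local input (y axis, deposited MACS values, bars the 95% counting interval) of all 41 factor peaks within 50 kb of the 5 genes, in order of position within each library. The highest points are the Rbpj peaks of Cdk6 (21.3) and Ccnd3 (19.4) and the ICN1 peak of Ccnd3 (17.2).

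All 8 HA-Zmiz1 peaks lay in H3K4me1, in H3K4me3 and in labelled-H3K27me3 segments, and 0 in labelled-H3K27ac segments. In the whole HA-Zmiz1 list 93.6% of peaks lay under segments labelled H3K27me3 and 1.93% under those labelled H3K27ac. Of the 3 ICN1 peaks, 2 lay in H3K4me1 and 3 each in H3K4me3 and the library labelled H3K27me3, the share in the latter over the list being 89.4%. None lay in the library labelled H3K27ac, against 8.70% over the list. Of the 30 Rbpj peaks, 21 lay in H3K4me1, 27 in H3K4me3, 27 under the label H3K27me3 (86.2% over the list) and 2 under H3K27ac (5.31%). For the 2 H3K27 libraries, the counts at the 5 genes are near those of the whole lists. Shares of the whole lists in H3K4me1 and H3K4me3 were not computed.

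The rest of the pathway was read from a list of 30 genes of the G1 to S transition: E and A cyclins, Cdk2, the retinoblastoma family, E2F factors with their partners, the Cdk inhibitors, and genes for cyclin turnover and Cdk activation. HA-Zmiz1 peaks lay within 50 kb of 16 of 30 (53.3%, against 27.8% of coding genes), HA-line ICN1 of 2 (6.67%, against 3.42%) and Rbpj of 28 (93.3%, against 67.2%). These shares are not particular to the pathway. HA-Zmiz1 lay at 60% of the housekeeping, 62.5% of the B-cell and 50% of the myeloid genes. Its shares were 100% of the T-cell and 5% of the developmental genes. In the same order of lists, HA-line ICN1 lay at 5%, 12.5%, 25%, 75% and 0%. Rbpj lay at 100%, 75%, 87.5%, 100% and 35%. Of the 30 G1 to S genes, Flag-Zmiz1 lay at 1, Ccna2 (4.06% of coding genes), and Flag-line ICN1 at 0 (0.215%). H3K4me3 and the library labelled H3K27me3 each covered an end of 26 of 30, against 46.6% and 43.1% of coding genes. Each also covered an end of 19 of 20 housekeeping and 12 of 12 T-cell genes, and of 1 of 8 B-cell and 1 of 8 myeloid genes. Of the 30 G1 to S genes, H3K4me1 covered an end of 12 (23.8%), and the library labelled H3K27ac of 0 (18.9%).

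The G1 to S genes with an ICN1 peak in the HA line were Cdk2 and Cdkn1a. Cdk2, the kinase of cyclins E and A, had an ICN1 peak with a fold of 7.31, an HA-Zmiz1 peak with a fold of 14.3 and an Rbpj peak with a fold of 17.5, about 41.3 kb away. Cdkn1a, which encodes the inhibitor p21, had an ICN1 fold of 5.99 at 8.87 kb and an HA-Zmiz1 fold of 13.5 at 34.1 kb. Both ICN1 folds are below the 17.2 of the strongest Ccnd3 site. Among the other genes, the highest HA-Zmiz1 −log10 p values were at E2f2, an activating E2F (fold 16.3, in the gene), Ccne1, cyclin E1 (11.3, in the gene), Tfdp1, an E2F partner (9.33, at 49.97 kb), and E2f1 (9.74, at 47.3 kb).

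Genes of the most similar pattern were found by the percentile, over all coding genes, of the strongest peak or segment within 50 kb in each of the 9 lists, and the mean absolute difference of those percentiles. For Ccnd3 they included Desi1 (3.02 points) and Xrcc6 (3.46), where the median coding gene differed by 40.9 points. For Cdk6 they were Scaf8 (1.75), Tcof1 (1.92) and H2-T-ps (3.17), against a median of 46.1. For Cdk4 they were Zfp598 (1.76), Rnf151 (2.12) and Rps2 (2.12), against 22.7. For Ccnd2 they were Neurod2 (1.76), Gm33099 (1.76) and Rasl10b (2.64), all on chromosome 11, against 24.5. For Ccnd1 they were Gata1 (1.89), Hrk (2.13) and Fgf4 (2.31), against 26.1. Fgf4 is on chromosome 7, as Ccnd1 is. Genes close together on a chromosome share the regions that set the measure. Among the 5 genes themselves, Ccnd3 and Cdk6 differed by 11 points, Ccnd2 and Cdk4 by 10.8, Ccnd1 and Ccnd2 by 13.6, and Ccnd1 and Cdk6, the least alike, by 57.3.

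Between the lines, the 2 lists of each factor differed at Ccnd3 and Cdk6. HA-Zmiz1 had 5 peaks in the Ccnd3 window and 3 in the Cdk6 window, and Flag-Zmiz1 0 in both. The nearest Flag-Zmiz1 peak to Ccnd3 was 175 kb away with a fold of 8.09, and the nearest to Cdk6 was 892 kb away with a fold of 7.42. ICN1 had 2 and 1 peaks in the HA line and 0 in the Flag line. The Flag-line lists were shorter at like depth, with 581 against 4984 Zmiz1 peaks and 82 against 414 ICN1 peaks. Of the 82, 53 lay at sites with 10 or more times the mean input background, which leaves 29 against 382 ICN1 peaks outside such sites and 539 against 4952 Zmiz1 peaks. In the Flag-line ICN1 list, outside sites of high input background, the weakest listed peak had a pileup of 5 tags and the lowest fold was 3.86. HA-line reads were pooled before peak calling, per the file headers. The part of any of these in the difference at Ccnd3 and Cdk6 was not tested.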

How the data were processed

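ChIP-seq of 5 factor and 4 histone targets was read from the deposited peak and segment lists, which start where the authors' processing stopped. Per the file headers, the authors called peaks with MACS 2.0.10.20120913, using the matching line's input, at a p-value limit of 1e-05, with 1 tag kept per position and local windows of 1000 and 10000 bp. Reads of the HA line were pooled, per the file headers. Per the submitters' processing notes, the tools were SICER 1.1, HOMER 4.2, FastQC 0.10.0, Bowtie 0.12.7 and MACS2 2.0.10, and the build mm10, without roles. Each deposited peak has a pileup signal in tags, a −log10 p and a fold over local input. Each deposited segment has counts of ChIP and control reads, their fold (a ratio), and a p-value with its false discovery rate, as the authors computed them. Segment widths are multiples of 200 bp.

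These values were used only to describe and rank regions within a list (peaks by −log10 p, segments by fold or width). Regions were joined to genes by overlap of at least 1 bp with Python 3.11.15, pandas 2.3.3 and scipy 1.17.1. Intervals at 95% are exact Poisson limits of the pileup with the local background held fixed, or exact (Clopper-Pearson) limits of the ratio of segment reads. Segment limits were made 1-based. Local input background was recovered from pileup and fold. The code for genomic overlaps and the arithmetic linking fold and local background were tested on simulated data. The code for the 95% limits was not part of that test. The depth of the histone libraries is not given in the sources used here. Promoter stretches came from RefSeq (GRCm38.p6), which matched 3 of the 5 genes.

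The genes named are the 5 genes, coding genes within 50 kb of them, the genes of the G1 to S list with an HA-line ICN1 peak and up to 4 more by HA-Zmiz1 −log10 p, and the 3 coding genes of most similar pattern for each. An item that this rule covers is not reported here. Gm41590 and Gm36470 were named after the peaks in them were seen. The 5 genes and all lists were chosen with earlier results of these data known. Windows of 10 and 200 kb, a p limit of 1e-10, removal of input-rich peaks, other overlap rules and other rules for segments at gene ends were the alternatives. With 1 library per target and line, no test was made. The 2 inputs have no list of their own and entered only through the authors' folds.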

Additional observations from a re-analysis of the deposited data

How the results depend on the processing

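Of 47 alternatives to 12 counts, 42 kept the count within 1.5 times and 5 moved it. A change from 2 to 3 genes counted as kept. Some alternatives could not move a count. Leaving out input-rich peaks was one, since none of the 41 peaks at these genes was input-rich. The 42 therefore overstate how firm the counts are. With a window of 200 kb, 1 of the 5 genes, Ccnd3, had a Flag-Zmiz1 peak in place of 0. H3K4me1 over a gene end fell from 3 genes to 1, Ccnd2, among the upper 50% of segments by fold. When any segment within 50 kb counted, H3K4me1 rose to 5 genes, the library labelled H3K27me3 from 2 to 5 and the library labelled H3K27ac from 2 to 4, since flanking segments then enter by construction. Within 1 kb of an end, Cdk4 joined both H3K27 libraries, which gave 3 genes each. HA-Zmiz1 and HA-line ICN1 still lay at Ccnd3 and Cdk6 with the p limit of 1e-10. Both genes have such peaks inside their spans, so no choice of window could have removed them. With 200 kb HA-Zmiz1 also reached Cdk4. With 10 kb, Rbpj no longer reached Ccnd2. Shares of coding genes under these other rules were not computed, so the changed counts describe the 5 genes only. No paired analysis was possible because each group has 1 sample. Depth limits weak sites: at these genes, peaks with a pileup of 10 tags or fewer have 95% intervals whose limits differ more than 3-fold, and a site short of the p limit is absent from a list whatever its occupancy.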
